A study of Arabidopsis thaliana with 24 samples.

Results

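Regulators of seed maturation, 9 of the 33414 gene lines in the table, were followed across 4 tissues of wild type and clf-28 plants of Arabidopsis thaliana. They were LEC1, L1L, LEC2, FUS3, ABI3, ABI4, ABI5, WRI1 and DOG1, chosen by gene identifier from their known roles. The wild type (WT) was the accession Col-0, and clf-28 is a mutant allele of CURLY LEAF (CLF), a histone methyltransferase of Polycomb repressive complex 2 that places the repressive mark H3K27me3. The study asked which transcripts depend on CLF. All plants grew in long days at 22 °C. Roots and shoots came from plants 2 weeks old on MS plates, and inflorescences and siliques from plants 5 weeks old in soil, with 3 biological replicates for each of the 8 groups according to the series description. The labels give the age of the plants but no stage of the seeds inside the siliques.

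Seed maturation is the phase in which the embryo stops patterning, fills with storage protein and oil, and acquires dormancy and tolerance of drying. LEC1 and its relative L1L are NF-Y transcription factor subunits that work with the B3-domain factors LEC2, FUS3 and ABI3, and these 3 bind RY motifs in the promoters of storage genes. ABI4 and ABI5 act in the response to abscisic acid (ABA), WRI1 switches on genes of oil synthesis, and DOG1 sets the depth of seed dormancy. After germination Polycomb complexes and VAL proteins are known to keep several of these genes silent, and plants lacking both CLF and its relative SWN are known to form embryo-like tissue.

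Levels are FPKM, which divide the fragments of a gene by its transcript length and by the size of the library, and read depth is unknown. Among the 24 libraries were 2 that matched each other's tissue. Averaged over libraries, Spearman's rho across genes was 0.980 between the library labelled clf-28 shoots replicate 3 and the siliques of clf-28, and 0.873 between it and the remaining clf-28 shoots. For the library labelled clf-28 siliques replicate 3 the mean rho was 0.982 against clf-28 shoots and 0.878 against its label's group. Both were left out, so clf-28 shoots and clf-28 siliques had 2 libraries each and the fit used 22. The remaining libraries carried the markers of their labelled tissue, with a root list at 356 to 639 summed FPKM in roots and at most 23.4 elsewhere. CLF itself stood at 6.05 to 14.2 FPKM in WT and 6.81 to 19.5 in clf-28, and gene-level FPKM does not show the lesion. In bulk tissue, fewer cells of a type and less RNA per cell cannot be told apart.

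WT siliques replicate 1 stood apart from WT siliques replicates 2 and 3. Of 8 listed seed storage protein genes, CRU3 and SESA3 were listed at 0 in both clf-28 silique libraries with the Cufflinks status HIDATA, which marks an estimate not made because the locus held too many fragments. Their silique values are not read, and storage sums here are over the 6 remaining genes. They summed to 25226 FPKM in WT siliques replicate 1, against 3.38 and 4.62 in the other WT silique libraries and 131117 and 140329 in clf-28. The values of WT siliques replicate 1 are therefore given separately for the regulators and for the storage, oil body and leaf sums. Other listed genes are given as WT ranges or differences that include it. It stays in the main fit.

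Promoters of 4 regulators are shown. They are LEC1, FUS3 and ABI3, from the 7 that were higher in clf-28 siliques, and ABI5, which was higher in clf-28 shoots. Each is the 250 bases before the annotated start of the gene, read from RefSeq TAIR10.1. Capitals mark the GA repeat GAGAGA on either strand, and in FUS3 also the RY core CATGCA. In ABI5 its GA repeats are left in lower case and capitals mark the G-box CACGTG, the kind of element bound by bZIP factors such as ABI5 itself.
LEC1 (chromosome 1, 7729650 to 7729899, minus strand): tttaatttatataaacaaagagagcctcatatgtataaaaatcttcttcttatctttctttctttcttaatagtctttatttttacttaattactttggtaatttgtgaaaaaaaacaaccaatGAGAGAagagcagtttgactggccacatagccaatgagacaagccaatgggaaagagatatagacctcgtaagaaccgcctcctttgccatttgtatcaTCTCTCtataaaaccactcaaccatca
FUS3 (chromosome 3, 9856213 to 9856462, minus strand): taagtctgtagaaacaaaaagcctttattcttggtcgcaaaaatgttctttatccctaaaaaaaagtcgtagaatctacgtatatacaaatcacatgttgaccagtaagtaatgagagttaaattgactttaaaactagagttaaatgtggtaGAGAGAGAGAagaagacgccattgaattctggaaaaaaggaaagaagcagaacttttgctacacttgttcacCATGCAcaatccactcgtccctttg
ABI3 (chromosome 3, 8997120 to 8997369, plus strand): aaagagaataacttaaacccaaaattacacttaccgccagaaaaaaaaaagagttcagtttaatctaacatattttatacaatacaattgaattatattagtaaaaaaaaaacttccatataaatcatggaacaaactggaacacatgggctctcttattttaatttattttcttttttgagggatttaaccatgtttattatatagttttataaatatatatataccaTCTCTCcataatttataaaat
ABI5 (chromosome 2, 15207637 to 15207886, minus strand): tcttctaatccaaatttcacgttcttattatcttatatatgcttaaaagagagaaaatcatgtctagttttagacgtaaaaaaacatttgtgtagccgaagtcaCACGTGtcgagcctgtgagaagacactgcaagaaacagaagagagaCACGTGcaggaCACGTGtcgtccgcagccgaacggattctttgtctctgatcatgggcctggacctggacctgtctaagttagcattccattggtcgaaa

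In the 9 promoters of this length the GA repeat occurred in 7, all but WRI1 and DOG1, against 20.6% of 27443 protein-coding promoters. GA repeats are known as binding sites of BPC proteins, which can recruit Polycomb complexes in Arabidopsis. The RY core occurred in FUS3 alone, 25 bases before the start (position -25), against 8.43% of all promoters. The G-box occurred in ABI5 alone, at 3 places (positions -146, -100 and -89), against 6.49%. The telobox AAACCCTA was in none of the 9 (4.49% of all promoters), and the AW box, the motif bound by WRI1, was in LEC2, ABI4 and ABI5 (37.6%). All motifs were searched on both strands. These are matches of letters in a short window and do not show binding.

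The 9 genes lay on 9 lines of the table. LEC1 (AT1G21970) lay on chromosome 1 from 7727577 to 7729617, LEC2 (AT1G28300) on chromosome 1 from 9896867 to 9899876, and ABI3 (AT3G24650) on chromosome 3 from 8997370 to 9001190, in TAIR10. ABI4 (AT2G40220) and ABI5 (AT2G36270) lay on chromosome 2, from 16796599 to 16797585 and from 15204423 to 15207546. WRI1 (AT3G54320) was on chromosome 3 from 20114684 to 20118661, and DOG1 (AT5G45830) on chromosome 5 from 18589447 to 18591474. The line for L1L (AT5G47670, chromosome 5, 19312988 to 19317522) was merged with its neighbour AT5G47660, so its level is that of both genes together. The line for FUS3 (AT3G26790, chromosome 3, 9853794 to 9860970) was longer than the annotated gene, which spans 9853828 to 9856212, and also covered the non-coding gene AT3G05085.

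**Figure D1:**
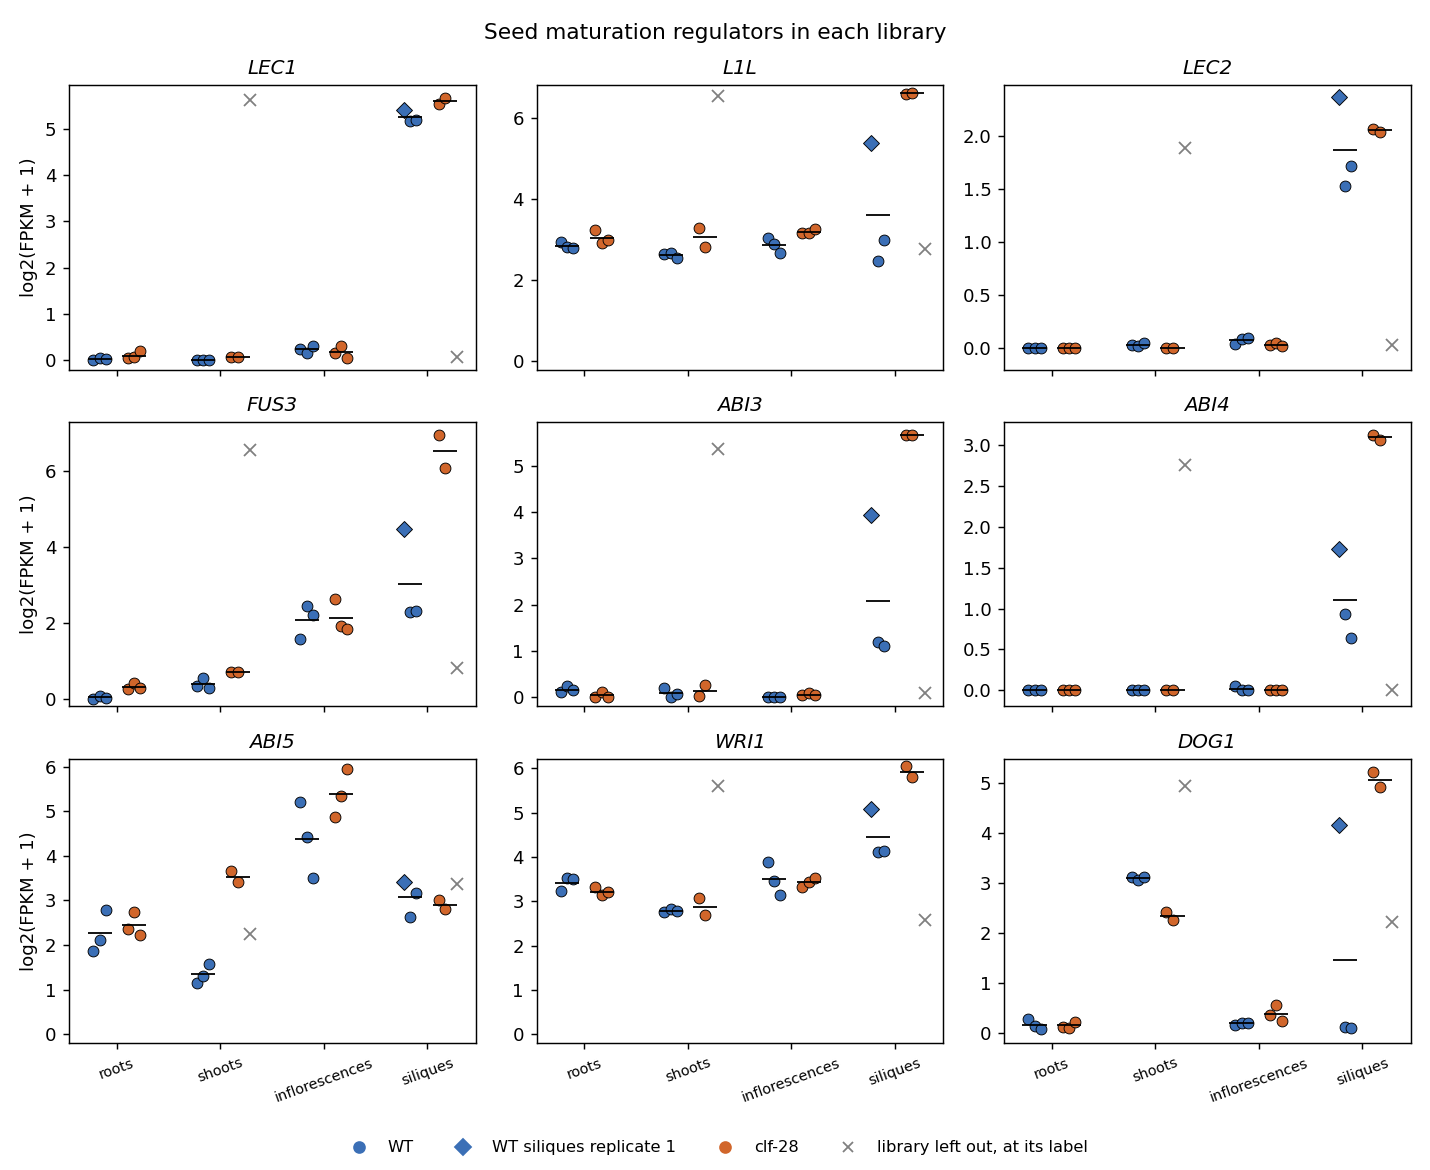
Level of each regulator in each library as log2(FPKM + 1), by tissue, with WT in blue, clf-28 in orange and a bar at each group mean. The diamond is WT siliques replicate 1, and the crosses are the 2 libraries left out, drawn under their labels; in siliques the clf-28 points lie above every WT point for 7 of the 9 genes, and ABI5 is the gene whose highest levels are in inflorescences.

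In WT plants LEC1, LEC2, ABI3, ABI4 and WRI1 were higher in siliques than in each of the other tissues, and ABI5 was highest in inflorescences. Differences between tissues were tested with limma on log2(FPKM + 1), with Benjamini-Hochberg adjusted p over 23847 genes. From inflorescences to siliques, LEC1, LEC2, ABI3, ABI4 and WRI1 were higher and ABI5 was lower, which is 5 and 1 of 9 where 18.6% and 21.6% of all genes were called. Siliques against shoots gave 7 higher (30.8% of all genes), and siliques against roots 6 higher (33.8%). Shoots against roots gave 1 higher (23.0%) and 2 lower (31.8%). A gene was tested if it reached 1 FPKM in at least 3 libraries. LEC1, LEC2, ABI3 and ABI4 did so through siliques alone, so their high silique levels decided that they were tested. The silique counts are therefore descriptions, and the shares of all genes are no fair baseline for them.

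LEC1, which starts the embryo program, was at 41.2, 34.9 and 35.2 FPKM in the 3 WT silique libraries in the order of their replicate numbers. Outside siliques it stayed between 0 and 0.235 FPKM in WT, and all 3 shoot libraries listed it at 0. WT siliques replicate 1 thus sat only a little above the other WT siliques for this gene, 1.17 times their mean. LEC2 was at 4.13, 1.87 and 2.27 FPKM in WT siliques and at most 0.0707 elsewhere.

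The order of tissues was different for the remaining genes. ABI5, a bZIP factor of the ABA response, was highest in WT inflorescences at 36.1, 20.4 and 10.3 FPKM, followed by siliques at 9.66, 5.23 and 7.96. Roots held 2.65, 3.35 and 5.94 FPKM, and shoots 1.23, 1.46 and 1.98. Inflorescences exceeded siliques by 1.30 on the log2 scale (the silique value was -1.30, SE 0.36, limma adjusted p = 0.00758), roots exceeded shoots (shoots minus roots -0.92, adjusted p = 0.0391), and the difference between siliques and roots was not called (0.81, 95% interval 0.05 to 1.57, unadjusted p = 0.0376, adjusted p = 0.0592). Siliques against roots was called in 6 of 31 alternatives, and the difference between shoots and roots lost its call in 9 of 31 (adjusted p up to 0.208).

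DOG1 was a shoot gene in WT at 7.77, 7.43 and 7.74 FPKM, against 0.0567 to 0.22 in roots and 0.126 to 0.159 in inflorescences. Shoots exceeded roots by 2.94 on the log2 scale (SE 0.68, limma adjusted p = 0.00128). In WT siliques DOG1 was at 16.9 FPKM in replicate 1 and at 0.0905 and 0.0725 in the others, so no single level describes that group. The line for FUS3, which is longer than the annotated gene and also covers AT3G05085, was at 2.01, 4.42 and 3.63 FPKM in WT inflorescences. These levels were near the 3.87 and 4.03 of WT siliques replicates 2 and 3, and below the 21.5 of replicate 1. WRI1 was expressed everywhere in WT, from 5.79 FPKM in a shoot library to 33.1 in WT siliques replicate 1, and L1L held 4.87 to 7.23 FPKM in every non-silique WT library on a line it shares with a neighbour.

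In clf-28 siliques 7 of the 9 regulators were higher than in WT, and LEC2 and ABI5 were not called. Over all genes tested, 12.2% were called higher and 16.4% lower. The median difference of the 9 was 2.00 on the log2 scale, beside -0.05 for all genes. In the same 7 genes both clf-28 libraries lay above all 3 WT libraries, an arrangement shown by 20.8% of all genes. LEC1, LEC2, ABI3 and ABI4 passed the expression filter through siliques alone, and ABI4 needed both clf-28 libraries to pass. The counts are therefore descriptions, and the shares of all genes are no fair baseline for them.

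Among the NF-Y subunits, LEC1 reached 45.0 and 49.5 FPKM in clf-28 siliques against the 34.9 to 41.2 of WT. The groups were close but did not overlap, and the difference was small, 0.34 on the log2 scale (SE 0.10, limma adjusted p = 0.0209). That call was lost without WT siliques replicate 2 or 3 (0.30 and 0.31, adjusted p = 0.0745 and 0.0705), without clf-28 siliques replicate 2 (0.27, adjusted p = 0.159), and when 0.1 FPKM was added in place of 1 FPKM (0.35, adjusted p = 0.469). The L1L line moved much further, from 40.7, 4.58 and 7.03 FPKM in WT to 96.8 and 97.1 in clf-28, with a difference of 2.99 (SE 0.51, adjusted p = 3.68e-04).

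Of the 3 B3 factors, FUS3 and ABI3 rose and LEC2 did not. FUS3, which is known to hold back gibberellin synthesis in the maturing embryo, was at 21.5, 3.87 and 4.03 FPKM in WT siliques and at 123 and 67.5 in clf-28 (3.49, SE 0.48, limma adjusted p = 5.42e-05). ABI3, needed for drying tolerance and storage protein accumulation, was at 14.3, 1.29 and 1.15 FPKM in WT and at 49.3 and 49.6 in clf-28 (3.58, SE 0.52, adjusted p = 9.69e-05). LEC2 was at 3.17 and 3.10 FPKM in clf-28, within the WT range of 1.87 to 4.13, and its difference of 0.18 had a 95% interval of -0.14 to 0.51 (adjusted p = 0.419). The 2 clf-28 libraries were nearly equal for ABI3 and LEC2, and differed most for FUS3.

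Of the ABA factors, ABI4 rose and ABI5 did not. ABI4, an AP2-type factor, was at 2.31, 0.911 and 0.553 FPKM in WT siliques and 7.77 and 7.40 in clf-28, a difference of 2.00 (SE 0.19, limma adjusted p = 2.12e-06). It passed the expression filter of 1 FPKM in 3 libraries with exactly 3, both of clf-28 siliques and WT siliques replicate 1. ABI5 was at 7.08 and 5.97 FPKM in clf-28 siliques, inside the WT range of 5.23 to 9.66, and its difference of -0.17 had a 95% interval of -1.01 to 0.68 (adjusted p = 0.828).

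WRI1, the activator of oil synthesis, went from 33.1, 16.2 and 16.6 FPKM in WT siliques to 65.1 and 55.2 in clf-28 (1.48, SE 0.24, limma adjusted p = 2.62e-04). DOG1 went from 16.9, 0.0905 and 0.0725 FPKM to 36.8 and 29.3 (3.62, SE 0.76, adjusted p = 0.00175). Both clf-28 libraries exceeded WT siliques replicate 1 for both genes.

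**Figure D2:**
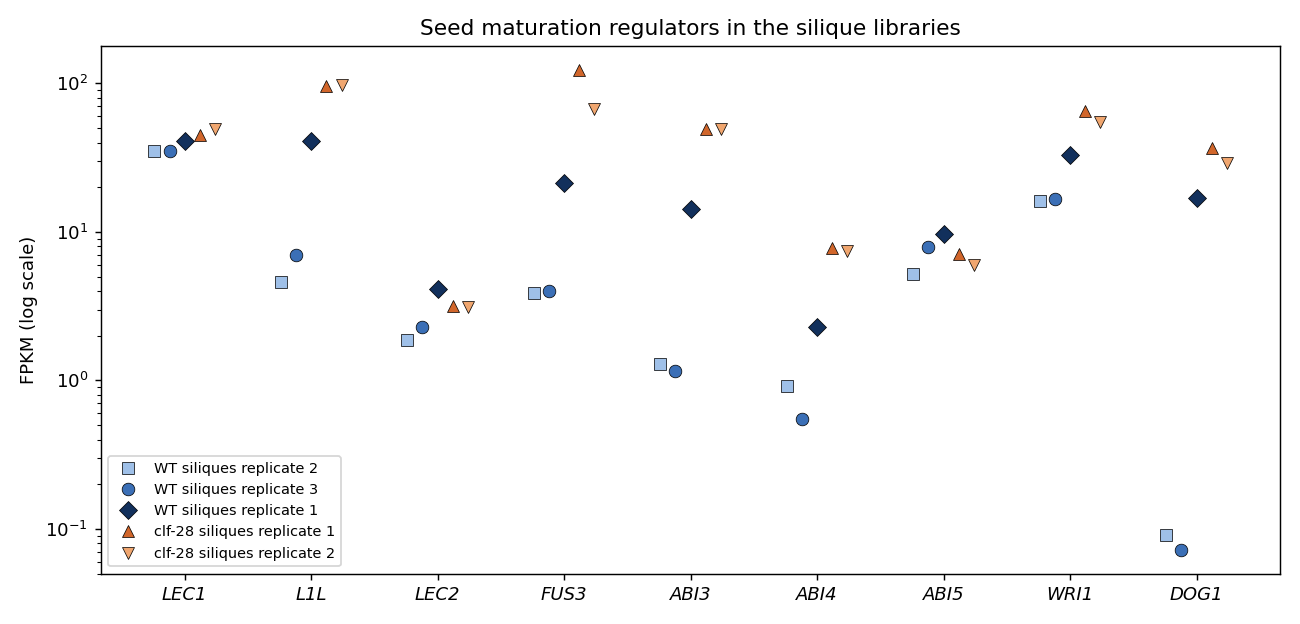
FPKM on a log scale for each regulator in the 3 WT and 2 clf-28 silique libraries. WT siliques replicate 1 lies between the other WT libraries and clf-28 for L1L, FUS3, ABI3, ABI4, WRI1 and DOG1, and all 5 libraries lie close together for LEC1 and ABI5.

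The size of the silique differences depended on the WT library used. Set against WT siliques replicate 1, the clf-28 mean was 4.44 times higher for FUS3, 3.46 for ABI3, 3.29 for ABI4, 2.38 for L1L, 1.95 for DOG1 and 1.82 for WRI1. Set against WT siliques replicate 2, the same ratios were 24.7, 38.3, 8.32, 21.2, 365 and 3.71. LEC1 gave 1.15 and 1.35, and LEC2 0.760 and 1.67. WT siliques replicate 1 itself stood above the mean of the other WT siliques 208-fold for DOG1, 11.7-fold for ABI3, 7.02-fold for L1L and 5.44-fold for FUS3, and 1.17-fold for LEC1.

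Set per unit of LEC1 within a library, ABI3 was at 0.0369 and 0.0327 in WT siliques replicates 2 and 3, at 0.347 in replicate 1, and at 1.10 and 1.00 in clf-28. DOG1 per LEC1 went from 0.00259 and 0.00206 through 0.411 to 0.817 and 0.591 in the same order. LEC2 per LEC1 was at 0.0536 and 0.0645 in WT siliques replicates 2 and 3, at 0.1003 in replicate 1, and at 0.0705 and 0.0627 in clf-28, so that WT siliques replicate 1 lay above both clf-28 libraries. Both values of a ratio come from the same library and are per transcript length.

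Without WT siliques replicate 1, 8 regulators were tested in siliques, since ABI4 no longer passed the filter, and 7 of them were higher (16.6% of all genes). LEC2 was now called at 0.43 (limma adjusted p = 2.12e-04), and DOG1, ABI3, FUS3 and L1L were at 4.97, 4.51, 4.22 and 3.87. The library left out was noticed from its seed storage genes and held the highest LEC2 level of the WT siliques. Leaving it out thus picks samples by the outcome, so these calls are descriptions and the share of all genes is no fair baseline. The 5 silique libraries fitted alone gave 0 calls among the 9, with 6 higher at an unadjusted p under 0.05, and adjusted p from 0.0517 for ABI4 to 0.175 for LEC1 among the 7 genes called over 22 libraries. In that fit 1.34% of all genes were called higher and 3.12% lower. The differences were the same in size, and their SE rose from 0.76 to 1.37 for DOG1 and from 0.52 to 0.95 for ABI3, since the spread then came from the siliques alone.

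**Figure D3:**
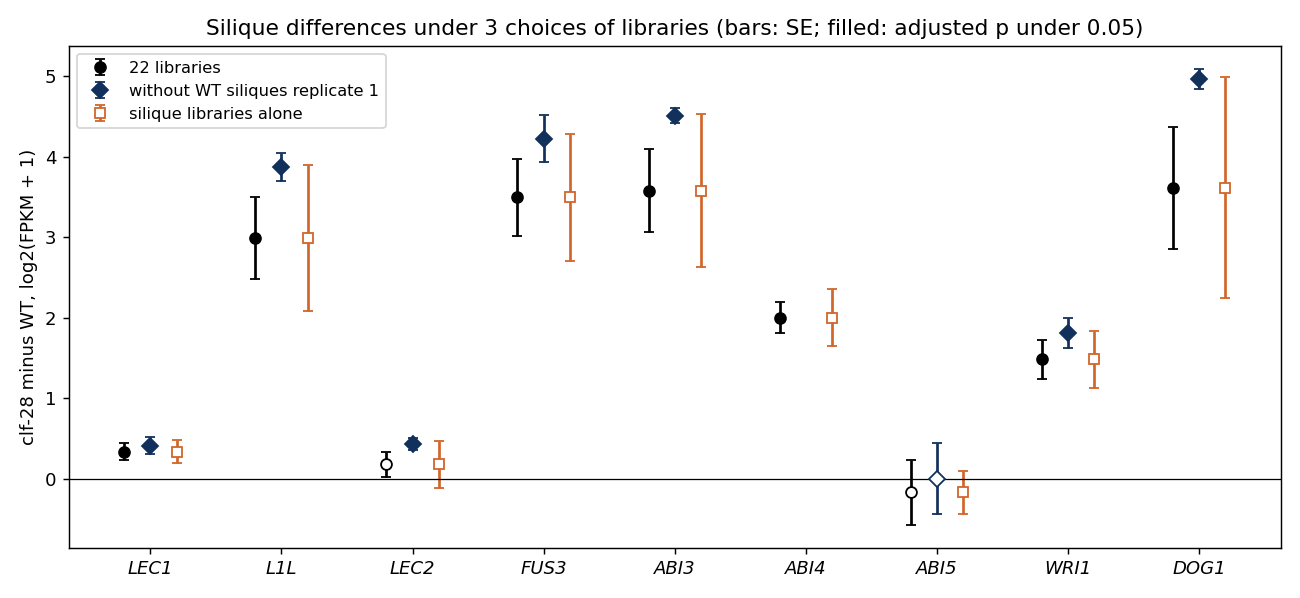
Silique difference of each regulator, clf-28 minus WT in log2(FPKM + 1), from 22 libraries, without WT siliques replicate 1, and from the 5 silique libraries alone. Bars are SE and filled symbols have an adjusted p under 0.05; the 5-library fit has the same centres as the 22-library fit and no filled symbol, and ABI4 has no value without WT siliques replicate 1.

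Most listed targets of the regulators were higher in the same siliques, where 12.2% of all genes were called higher and 16.4% lower. Those shares stand beside every silique list count below. The gene lists here were chosen with earlier results of these data known, so their counts are descriptions. Of 8 seed storage genes 6 were higher (median 9.09 over the 8), and the other 2 were CRU3 and SESA3, listed at 0 in clf-28 with the status HIDATA. SESA4, a 2S albumin gene, was at 5369 FPKM in the highest WT library and 36870 and 42126 in clf-28, a difference of 10.91 (SE 2.27, limma adjusted p = 0.00177). All 13 tested oil body and late embryogenesis genes of 14 listed were higher (median 3.61), among them RAB28 (2.51), EM6 (2.67) and M17 (1.82). In roots, shoots and inflorescences fitted alone only 4, 4 and 5 of these genes passed the filter, so this count leans on their silique levels. The 14 genes summed to 5048 FPKM in WT siliques replicate 1, to 43.3 and 49.9 in replicates 2 and 3, and to 12541 and 13058 in clf-28. Of 13 WRI1 targets 11 were higher (median 1.08), among them the sucrose synthase gene SUS2 (5.21), with ACP1 (1.69), BCCP2 (1.53) and FATA1 (1.08) of fatty acid synthesis. ENO1 is among the 11 (2.73, limma adjusted p = 0.0459), and its 0 in WT siliques replicate 2 is a failed estimate (status FAIL). With the silique libraries fitted alone most of these calls were lost. In that fit 0 of 6 storage and 0 of 13 WRI1 target genes tested were higher. Of 12 oil body and late embryogenesis genes tested 1 was higher, where 1.34% of all genes were.

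Partners of the regulators moved as well. Of 12 other activators 7 were higher in clf-28 siliques (12.2% of all genes). Among them was BZIP67, a bZIP partner of the LEC1 and ABI3 network, at 0.412 to 11.2 FPKM in WT and 54.6 and 67.5 in clf-28 (4.39, SE 0.57, limma adjusted p = 3.99e-05). AGL15 and BBM, both known to promote embryo identity, were higher by 2.34 and 1.55. Of 12 genes of ABA metabolism and of ABI5 or DOG1 partners 5 were higher and 1 lower (12.2% and 16.4% of all genes). These included NCED6 (1.75) and NCED9 (2.58), which make the ABA precursor in seeds, and AHG1 (1.68), a phosphatase that DOG1 binds, while CYP707A2, which breaks down ABA, was lower (-0.90, adjusted p = 0.00229). With the silique libraries fitted alone, 1 of the 12 other activators was higher, and 0 of the 12 ABA metabolism and partner genes were called.

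Of 10 repressors of the seed program 1 was higher, VAL1 (0.94), and 1 lower, BMI1C (-0.91). Of 8 PRC2 subunits CLF was higher (1.16, adjusted p = 8.06e-04) and FIS2 lower (-0.62), by limma. Their medians, -0.02 and 0.11, were near that of all genes. With the silique libraries fitted alone no gene of these lists was called.

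Markers of other seed tissues were present at similar sums in both genotypes, and their members moved both ways. Median differences were -0.04 for the endosperm list and -0.92 for the seed coat list, beside -0.05 for all genes. The 11 endosperm genes summed to 92.4 to 112 FPKM in WT siliques and 108 and 118 in clf-28, with 3 higher and 4 lower of 10 tested, among them ALE1 (1.52), FWA (-1.53), AGL38 (-1.24) and MINI3 (-0.77). The 10 seed coat genes summed to 881 to 1153 and 983 to 1073, with 2 higher, TT10 (2.85) and MUM4 (1.08), and 6 lower, such as TT2 (-1.39) and TT16 (-0.97). The 5 leaf and photosynthesis genes summed to 16199 FPKM in WT siliques replicate 1, to 38023 and 39914 in replicates 2 and 3, and to 11827 and 14640 in clf-28, with PSAF (-1.25) and RBCS1A (-1.35) lower. The 8 flower, tapetum and pollen genes summed to 115 to 170 in WT siliques and to 72.1 and 67.1 in clf-28, with AMS (0.50) higher and AP3 (-1.08) lower. The 6 storage genes, at 3.38 to 25226 FPKM in WT and 131117 to 140329 in clf-28, moved with the regulators. With the silique libraries fitted alone, 3 of 10 endosperm genes were lower, and no seed coat, leaf or flower gene of these lists was called. The part of seed stage or of tissue make-up in the silique differences was not tested.

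Outside siliques the call was ABI5 in shoots, and no other regulator was called in any of the 3 tissues. In shoots 6.50% of all genes were higher and 4.11% lower, in roots 6.28% and 2.52%, and in inflorescences 1.70% and 2.18%. By limma 0 of 9 were called in roots, also 0 at an unadjusted p under 0.05, and 0 in inflorescences, with 1 at an unadjusted p under 0.05.

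**Figure D4:**
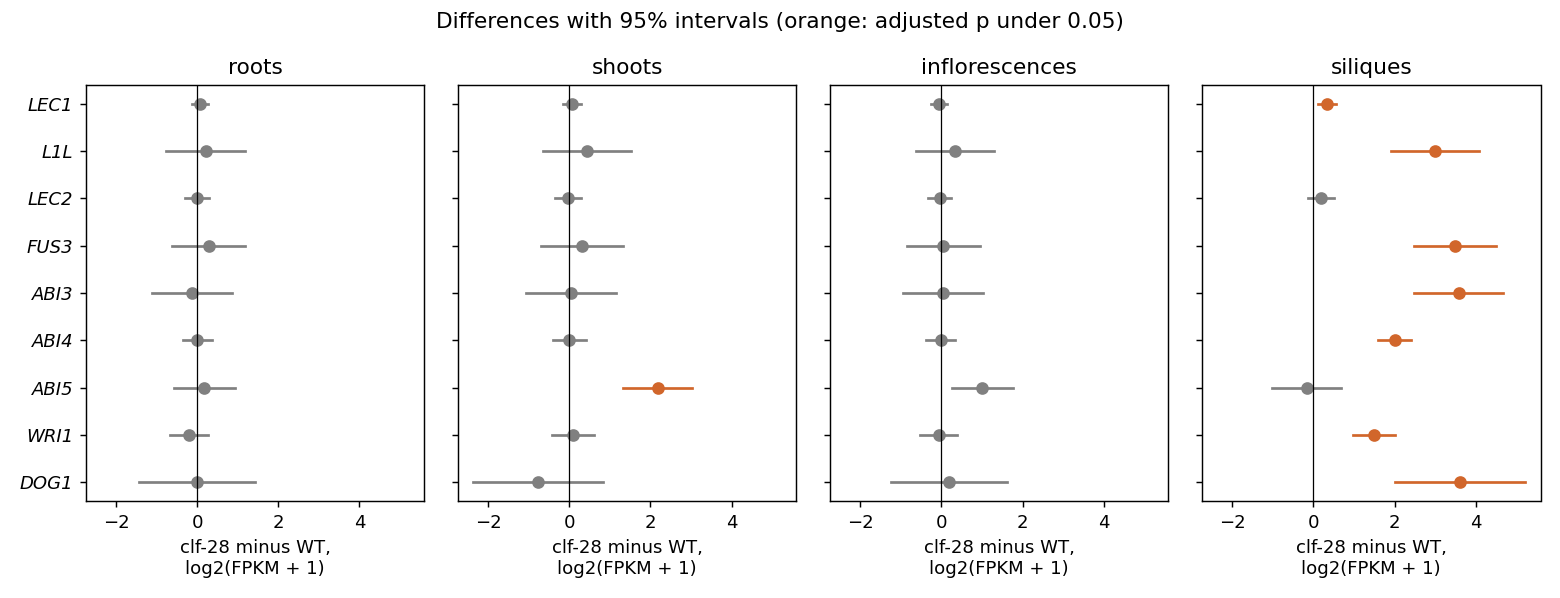
Difference clf-28 minus WT in log2(FPKM + 1) with 95% intervals for the 9 regulators in each tissue, orange where the adjusted p was under 0.05. Orange points are ABI5 in shoots and 7 genes in siliques. For each gene the intervals of all tissues share 1 estimate of spread that includes WT siliques replicate 1, and they are widest for DOG1, ABI3, L1L and FUS3.

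ABI5 was at 1.23, 1.46 and 1.98 FPKM in WT shoots and at 11.5 and 9.58 in clf-28 shoots. The groups lay far apart, 1.56 ± 0.384 (SD, n = 3) against 10.6 ± 1.39 (SD, n = 2). The difference was 2.18 on the log2 scale (SE 0.40, limma adjusted p = 0.00183), and it was called in all 32 alternatives tried, at 1.25 to 2.71. Within clf-28, ABI5 was higher in shoots than in roots (1.08, limma adjusted p = 0.0307), where in WT it was lower. The clf-28 call was lost in 6 of 31 alternatives (adjusted p up to 0.211).

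In inflorescences ABI5 was at 36.1, 20.4 and 10.3 FPKM in WT and 28.4, 39.7 and 60.3 in clf-28. The groups overlapped, and the difference of 1.01 was not called (SE 0.36, adjusted p = 0.141, unadjusted p = 0.0122). Without WT inflorescences replicate 1 limma called it (1.43, adjusted p = 0.0127), and 1355 of all 23798 genes tested were then higher, against 405 of 23847 in the main fit. Without WT inflorescences replicate 3 or clf-28 inflorescences replicate 3 its unadjusted p was not under 0.05. Over 32 alternatives it was called in 2, with adjusted p up to 0.477. In roots ABI5 was at 2.65 to 5.94 FPKM in WT and 3.66 to 5.69 in clf-28 (0.18, adjusted p = 0.911).

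DOG1 went the other way in shoots, at 7.77, 7.43 and 7.74 FPKM in WT and 4.35 and 3.83 in clf-28. Both clf-28 libraries were below all WT libraries, as in 21.7% of all genes, and the difference of -0.77 was not called over 22 libraries (SE 0.76, adjusted p = 0.654). The spread of DOG1 in that fit includes its 16.9 FPKM in WT siliques replicate 1. Without that library DOG1 was called lower at the same -0.77 (SE 0.11, limma adjusted p = 2.10e-04, 6.21% of all genes lower), and likewise with the 5 shoot libraries alone (SE 0.10, adjusted p = 0.00915, 8.53% of all genes lower).

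LEC1, LEC2, FUS3, ABI3 and ABI4 stayed under 1 FPKM in clf-28 roots and shoots. FUS3 was at 0, 0.059 and 0.0196 FPKM in WT roots and 0.2, 0.345 and 0.213 in clf-28 roots, and the groups did not overlap. That difference was below the 1 FPKM pseudocount and was not called (0.29, adjusted p = 0.844), and the clf-28 root libraries were at 0.209% to 0.362% of the clf-28 silique mean. LEC1 was the other gene above WT in all clf-28 root libraries, at 0.0322, 0.0428 and 0.15 FPKM against 0 to 0.031. Such genes were 2 of 9, compared with 18.0% of all genes.

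In shoots LEC1, L1L, FUS3 and ABI5 lay above WT in both clf-28 libraries and LEC2 and DOG1 below, where 29.4% and 21.7% of all genes did so. LEC2 was listed at 0 in both clf-28 shoot libraries and all 6 root libraries, and ABI4 was listed at 0 in every root and shoot library. ABI3 reached at most 0.193 FPKM in any root, shoot or inflorescence library of either genotype. In inflorescences L1L, ABI3 and DOG1 lay above WT in all clf-28 libraries (7.96% of all genes). L1L was there at 8.01 to 8.61 FPKM against 5.36 to 7.23, ABI3 at 0.0276 to 0.0594 against 0 to 0.00733, and DOG1 at 0.191 to 0.474 against 0.126 to 0.159.

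Seed storage transcripts were measured in the same clf-28 roots, shoots and inflorescences. The 6 storage genes with values in every silique library summed to 168 to 321 FPKM in clf-28 roots against 0.414 to 3.79 in WT, to 211 and 446 in shoots against 2.87 to 7.05, and to 144 to 305 in inflorescences against 0.966 to 10.3. These sums were 0.124% to 0.236%, 0.155% to 0.329% and 0.106% to 0.225% of the mean clf-28 silique sum of the same genes. None of the 8 listed storage genes was called in these tissues over 22 libraries. Without WT siliques replicate 1 limma called 8, 7 and 8 of them higher in roots, shoots and inflorescences (8.88%, 8.89% and 2.81% of all genes), against 0, 1 and 0 of the 8 regulators tested. That library was noticed from these storage genes, so the counts without it are descriptions and those shares are no fair baseline. Each tissue fitted alone, which does not use that library, called 8 of 8 tested storage genes higher in roots, 4 of 5 in shoots and 3 of 8 in inflorescences. Of all genes 9.08%, 12.7% and 0.170% were higher in those fits. The source of these storage transcripts was not tested.

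Genes that act with ABI5 were higher in clf-28 roots and shoots. Of the 12 ABA metabolism and partner genes, 5 were higher in roots and 6 in shoots, with none lower, and 1 in inflorescences. Of all genes 6.28%, 6.50% and 1.70% were higher in these tissues. The list was chosen with earlier results of these data known. The AFP genes encode proteins that bind ABI5 and restrain it. In shoots AFP1 went from 7.08 ± 0.765 FPKM (SD, n = 3) to 61.7 ± 2.58 (SD, n = 2), a difference of 2.96 (SE 0.25, limma adjusted p = 7.96e-07). AFP3 was higher by 3.17, AFP2 by 1.84 and AFP4 by 1.58, so all 4 AFP genes were called in the tissue where ABI5 was.

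In roots AFP1, AFP3 and AFP4 were higher by 1.73, 1.23 and 1.63 although ABI5 was not called there. AHG3, a phosphatase that damps ABA signalling and is also bound by DOG1, was higher by 2.44 in shoots and 1.58 in roots. The ABA hydroxylase gene CYP707A1 was higher in roots (2.21, from 8.13 ± 3.13 to 39.7 ± 0.964 FPKM, SD, n = 3) and was not called in shoots (0.57, limma adjusted p = 0.289), and CYP707A2 was higher in shoots (0.80). RAB18, a dehydrin gene of the ABA response, went from 17.9 ± 7.05 to 109 ± 17.8 FPKM in shoots (2.62, limma adjusted p = 0.00504). It belongs to the oil body and late embryogenesis list and was the 1 gene called there of 13 tested in shoots. KEG, which marks ABI5 protein for breakdown, was not called in roots or shoots (0.01 and 0.25, adjusted p = 1 and 0.146).

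**Figure D5:**
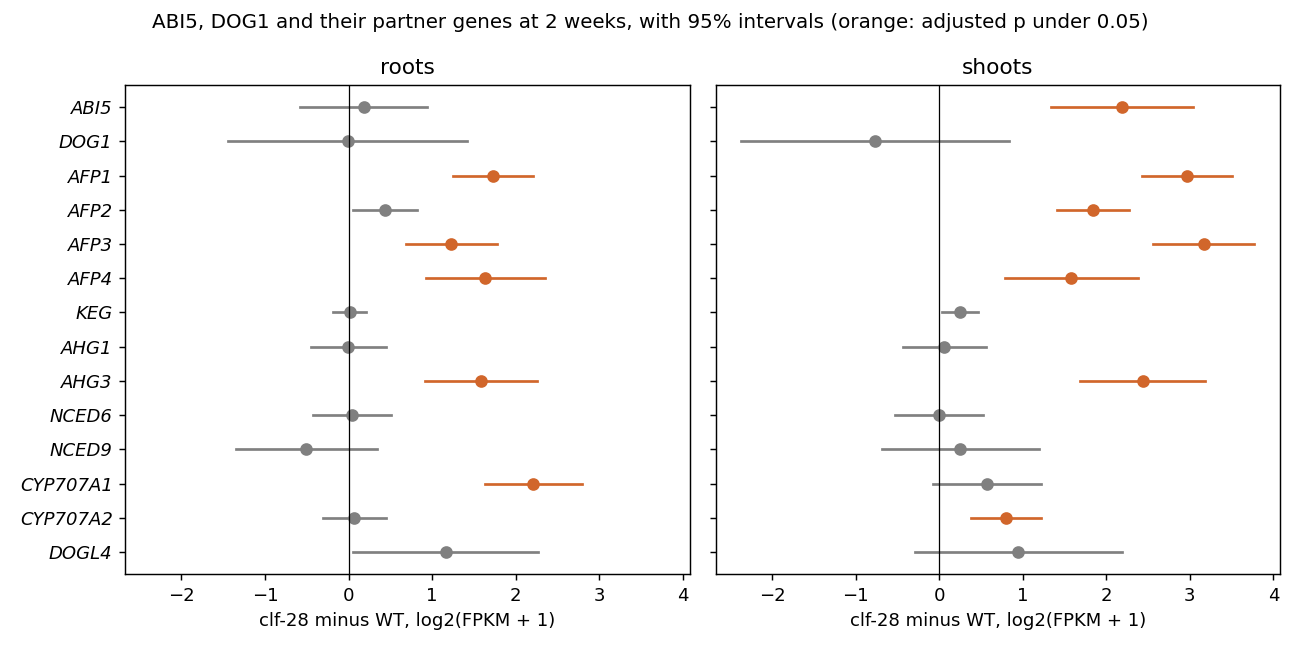
Difference clf-28 minus WT in log2(FPKM + 1) with 95% intervals for ABI5, DOG1 and the 12 genes of ABA metabolism and ABI5 or DOG1 partners, in roots and shoots at 2 weeks, orange where the adjusted p was under 0.05. The AFP genes and AHG3 are orange in shoots together with ABI5, and AFP1, AFP3, AFP4, AHG3 and CYP707A1 are orange in roots, where ABI5 is not.

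The other listed genes called outside siliques were these. NF-YC2, an NF-Y subunit gene, was higher in shoots (1.60) and roots (0.93). The repressor gene VAL3 was higher in shoots (0.63), and the fatty acid synthesis gene KASIII lower (-0.62). The endosperm gene AGL38 was higher in shoots (0.53), and FH5 in roots (0.64). In inflorescences CLF (0.92), AFP2 (0.76), SUC5 (0.57), TT16 (0.61) and TT8 (0.50) were higher and WRI3 (-0.43) lower.

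Among the tissue check lists, the photosynthesis genes LHCA4 (-1.57), PSBO1 (-1.27), PSAF (-1.17) and RBCS1A (-0.98) were lower in clf-28 roots, where the leaf list summed to 196 to 233 FPKM against 421 to 701 in WT. The root genes PRP3 (0.93) and RSL4 (0.57) were higher in roots. In shoots the floral organ identity genes AP3 (1.05) and PI (1.20) were higher, and the root genes MYB36 (-1.16) and PRP3 (-0.99) lower. In inflorescences the flower and pollen genes TSM1 (-1.47), A9 (-1.15), AMS (-0.76) and LAP5 (-0.73) were lower, where that list summed to 432 to 500 FPKM against 742 to 854. The part of tissue make-up in the differences of the regulators was not tested.

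The clf-28 effect differed between tissues for 7 of the 9 regulators, by an F test on the 3 differences between tissue effects (the interaction), which called 26.4% of all genes. Limma gave adjusted p = 4.96e-05 for ABI4, 0.00212 for FUS3, 0.00215 for ABI3, 0.00365 for WRI1, 0.0164 for L1L, 0.0173 for ABI5 and 0.0196 for DOG1. LEC1 and LEC2 were not called (0.166 and 0.788). ABI3 and ABI4 passed the filter through siliques alone, so the count of 7 is a description. Over roots, shoots and inflorescences alone, a test added after the values were seen, 0 of 9 were called (9.51% of all genes), and 1 had an unadjusted p under 0.05, ABI5 with an adjusted p = 0.0623. Over 31 alternatives of that test ABI5 was called in 6 (lowest adjusted p = 0.0118) and DOG1 in 2 (lowest 8.32e-04).

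Within clf-28 the silique levels stood apart from the rest. From inflorescences to siliques 8 of the 9 were higher (21.7% of all genes) and ABI5 was lower (27.8%), by 5.60 for ABI3, 5.42 for LEC1, 4.68 for DOG1, 4.40 for FUS3 and -2.48 for ABI5. LEC1, LEC2, ABI3 and ABI4 passed the filter through siliques alone, so the count of 8 is a description. ABI5 and FUS3 were the 2 genes called higher in inflorescences than in roots in clf-28 (2.95 and 1.80, limma adjusted p = 1.16e-06 and 0.00124), and also in WT (2.12 and 2.04), where 38.0% and 36.3% of all genes were. From roots to shoots of clf-28, DOG1 (2.19, adjusted p = 0.0216) and ABI5 were the 2 called higher (23.8% of all genes).

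The regulators resembled each other to different degrees over the 22 libraries. Correlations of log2(FPKM + 1) are descriptions here, since the points share tissues and libraries. LEC1 and LEC2 had a Pearson r of 0.989 and ABI3 and ABI4 of 0.992, while ABI5 had between -0.294 and 0.284 with every other regulator. The genes with patterns nearest to LEC1 were AT4G12825, ANN6 and GATA29 (all 0.998), and those nearest to LEC2 were AT1G34250 (0.999), CYP81D2 and AT1G26797 (both 0.996). Nearest to FUS3 were AT4G33600 (0.988), ADPG1 (0.985) and AT3G25160 (0.974).

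ABI3 was most like AT1G78500 (0.998), AT3G29385 and CSY1 (both 0.996), ABI4 like AT3G29385, AT4G35170 (both 0.996) and ABI3, and the L1L line like AGL67 (0.986), AT3G60730 (0.985) and AT3G04170 (0.984). WRI1 was most like AT3G11180 (0.980), the acyl carrier protein gene ACP5 (0.979) and AT5G15740 (0.966). DOG1 had M17, a late embryogenesis gene, at 0.936, AT5G64190 at 0.928 and AT1G49370 at 0.925. ABI5 had the weakest neighbours, AT1G17930 (0.931), AT3G55700 (0.918) and GAE2 (0.892).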

How the data were processed

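Strand-specific single-end RNA-seq was made from WT and clf-28 tissues, per the labels. The authors deposited a table of FPKM per gene line and library, made with TopHat, Cufflinks and Cuffdiff on TAIR10, per the submitters' processing notes, with versions not given in the sources used here. Per the file headers each FPKM has a status beside it. Of 34178 lines 764 named no gene (2.24%) and stayed out of the tests, and 48 columns of confidence bounds were not used. Statuses other than OK occurred for 128 values, 0 of them among the 9 regulators and 7 among the listed genes (CRU3, SESA3 and ENO1, all listed at 0). Summed FPKM, not a depth, was 849519 to 1334840 per library, and 18532 to 20840 lines reached 1 FPKM. Ratios between libraries under 0.3 FPKM showed no steps of whole reads, since the commonest bin of width 1% held 0.869% to 1.88% of genes, so depth is unknown and no count test was run.

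Lines at 1 FPKM or more in at least 3 of 22 libraries were kept (23847). Values were log2(FPKM + 1) on the deposited scaling, so differences of weakly expressed genes are understated. A mean per group was fitted in limma (version 3.58.1 in R 4.3.3), with an intensity trend, a robust prior and 14 residual degrees of freedom. Tests were two-sided and adjusted by Benjamini-Hochberg over all genes, and called at 0.05. The scripts were first tested on simulated data. Groups came from the labels. Alternatives covered the libraries used, the replicate block, normalization, the pseudocount, the filter and each tissue alone.

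The 9 genes and 12 gene lists (117 entries, 116 found) were chosen with earlier results of these data known. By rule the text names all 9 in every tissue, list members called outside siliques and up to 4 per list with the smallest p in siliques. KEG and the silique value of CYP707A2 fell outside the rule and were chosen after their values were seen. Lists of root, leaf and flower genes served as tissue checks. List counts without WT siliques replicate 1 and storage sums over 6 genes were added after the values were seen. Counts of storage genes from roots, shoots and inflorescences each fitted alone were added then too. Promoters came from the RefSeq annotation of TAIR10.1. Of 31456 single-gene lines, 100% lay on the same chromosome in it.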

Additional observations from a re-analysis of the deposited data

Results flagged for a closer look

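For 7 of the 9 regulators the effect of clf-28 differed between tissues by limma's F test of the interaction, which called 26.4% of all genes. The adjusted p was 0.0164 for L1L, 0.00212 for FUS3, 0.00215 for ABI3, 4.96e-05 for ABI4, 0.0173 for ABI5, 0.00365 for WRI1 and 0.0196 for DOG1. Over roots, shoots and inflorescences without siliques, 0 of 9 were called, where 9.51% of all genes were.

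The library labelled clf-28 shoots replicate 3, which the fit over 22 libraries left out, held all 9 regulators above every WT shoot library. It had LEC1 at 48.2 FPKM, L1L at 93.1, LEC2 at 2.69, FUS3 at 94.1, ABI3 at 40.0 and ABI4 at 5.75. ABI5 was at 3.77, WRI1 at 47.8 and DOG1 at 29.8. Except for ABI5 these values were near those of clf-28 siliques replicates 1 and 2.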

How the results depend on the processing

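Over the 4 tissues and 9 genes, 1071 alternative values of clf-28 against WT kept direction and side of the threshold, 16 lost a call, 7 gained one, 25 moved without a call and 1 reversed. With 24 libraries as labelled, 1 regulator was higher in siliques (main 7), the interaction called 0 (main 7), tissue differences numbered 12 in WT (main 29) and 16 in clf-28 (main 32), LEC1 in siliques turned to -1.50, and FUS3 in clf-28 inflorescences minus shoots to -0.54; these 2 extra libraries match each other's tissue. Each tissue fitted alone gave 0 higher in siliques (1.34% of all genes) and 1 lower in shoots (DOG1, 8.53% of all genes). Leaving out the 4 WT replicate 1 libraries gave 1 lower in shoots and 1 higher in inflorescences (ABI5). In that setting 2791 of all 23469 genes tested were lower in shoots and 3285 higher in inflorescences. The main fit had 981 and 405 of 23847. Leaving out 1 library at a time gave 5 to 7 higher in siliques, 1 to 1 higher and 0 to 1 lower in shoots, 0 to 1 higher in inflorescences, 0 to 0 in every other direction, 4 to 8 interaction calls (4 without clf-28 siliques replicate 1 or 2), and 26 to 36 and 27 to 33 tissue differences in WT and clf-28. The replicate block left 7 higher in siliques and 1 in shoots, 7 interaction calls and 28 and 32 tissue differences. Replicate numbers did not pair samples, since the deviations of same-numbered libraries correlated at -0.201 to 0.130 across genes. Depth is unknown, so a level of 0 cannot be told from a level too low to detect.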

Other observations

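The library labelled clf-28 siliques replicate 3 held LEC1 at 0.049 FPKM, FUS3 at 0.747, ABI3 at 0.0667 and ABI4 listed at 0, with ABI5 at 9.27, WRI1 at 4.98 and DOG1 at 3.68. In clf-28 shoots replicates 1 and 2 ABI5 was at 11.5 and 9.58, WRI1 at 7.39 and 5.51, and DOG1 at 4.35 and 3.83. Per unit of LEC1, ABI3 in the library labelled clf-28 shoots replicate 3 was at 0.831, DOG1 at 0.618 and LEC2 at 0.0558, and clf-28 siliques replicates 1 and 2 had 1.10 and 1.00, 0.817 and 0.591, and 0.0705 and 0.0627.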
